A study of Mus musculus with 6 samples.

Results

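The Src family kinases Fyn, Src, Yes1, Lyn, Fgr and Lck, their inhibitory kinase Csk, the tyrosine kinase Syk and the adaptor Sh3bp2 were followed in endothelial cells sorted from mouse glioma and from normal brain. These 9 genes were matched by symbol among the 24421 genes listed for each library, and each was found. They were picked with the glioma and normal values of these libraries in view, so their levels and differences are given as a description, with no test. The glioma group held 3 libraries of sorted endothelium from tumors that GL26l glioma cells had formed in the brain of C57BL/6 mice, 3 weeks after orthotopic injection. The normal group held 3 libraries of sorted endothelium from the brain of C57BL/6 mice without a labelled treatment. Library construction used total RNA and a Lexogen QuantSeq kit, which reads the 3′ end of polyadenylated transcripts. The design text calls the RNA sets independent, while no label ties a set to an animal, so the spread between libraries can be technical.

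Src family kinases are membrane-anchored tyrosine kinases with SH3, SH2 and kinase domains, and Csk holds them inactive by phosphorylating a tyrosine in their tail. Fyn, Src and Yes1 are found in most cell types and act in endothelium downstream of VEGF receptors and integrins, where they phosphorylate junction and focal adhesion proteins. Lyn, Fgr and Lck are best known from blood cells, where they phosphorylate the ITAM motifs of immune receptors. Syk docks on phosphorylated ITAMs through its tandem SH2 domains, and Sh3bp2 is an adaptor that binds Syk, Src family kinases and phospholipase C gamma.

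Values are deposited on a log2(x + 1) scale, with quantile-normalized x, and a gene without signal is listed at 0. A log2 value of 0 is not a measured absence, because the lowest value above 0 was 0.42, 3.82 and 5.22 in glioma replicates 1, 2 and 3, and 7.43, 2.84 and 0.22 in normal replicates 1, 2 and 3. Sequencing depth is unknown. Genes above 0 numbered 10013 to 13108 in the glioma libraries and 7446 to 13072 in the normal libraries, with the lowest number in normal replicate 1. Each of 12 endothelial markers was above 0 in each library, as the labelled cell type calls for, though markers of other cells were present too. The 3 highest of those markers were Egfl7, Pecam1 and Flt1. The markers' summed back-transformed value was 184046 to 335842 in glioma and 345162 to 473466 in normal libraries. All 6 neuron markers and all 6 fibroblast markers were highest in glioma replicate 1, with Tubb3 at a log2 value of 11.98 and Col1a2 at 10.93 there. The summed value of the neuron markers was 7587, 58 and 209 in glioma replicates 1, 2 and 3, against 491, 569 and 608 in normal replicates 1, 2 and 3. That of the fibroblast markers was 3668, 703 and 0 in the glioma libraries and 393, 100 and 59 in the normal libraries. Fewer cells of a type and less RNA per cell cannot be told apart in such sorted samples. File names carry date-like numbers that no library shares with the other group, so what they mark and the group cannot be told apart. Normal replicates 2 and 3 share such a number, and so do glioma replicates 2 and 3.

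Fyn, Lyn and Csk were above 0 in all 6 libraries, and each of the other 6 genes was above 0 in more glioma than normal libraries. Of the 9 genes, 8, 9 and 8 were above 0 in glioma replicates 1, 2 and 3, against 3, 5 and 6 in normal replicates 1, 2 and 3. Of all 24421 genes, 13108, 10954 and 10013 were above 0 in those glioma libraries, and 7446, 11853 and 13072 in those normal libraries. The glioma libraries all lay above the normal libraries for 5 genes, Fyn, Yes1, Csk, Syk and Sh3bp2, and below them for 0. A gene was tested when x reached 1 in 3 or more libraries, and among the 11862 such genes all glioma values exceeded all normal values for 6.91% and lay below all of them for 6.37%. All 5 were among these 11862 genes, as were 7 of the 9, while Fgr and Lck were above 0 in 2 libraries each and did not pass the filter. Syk and Sh3bp2 passed it through their glioma libraries only, so passing already placed them wholly higher in glioma. With limma over the 11862 genes, 0.0% passed a Benjamini-Hochberg adjusted p of 0.05, 509 (4.29%) had an unadjusted p under 0.05, and the smallest adjusted p was 0.875. In limma without a mean trend in the variance prior 15 genes passed, among them Syk and Sh3bp2, whose normal libraries were listed at 0 in 2 and 3 cases. As both genes were picked from this contrast, those calls lend them no support.

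**Figure D1:**
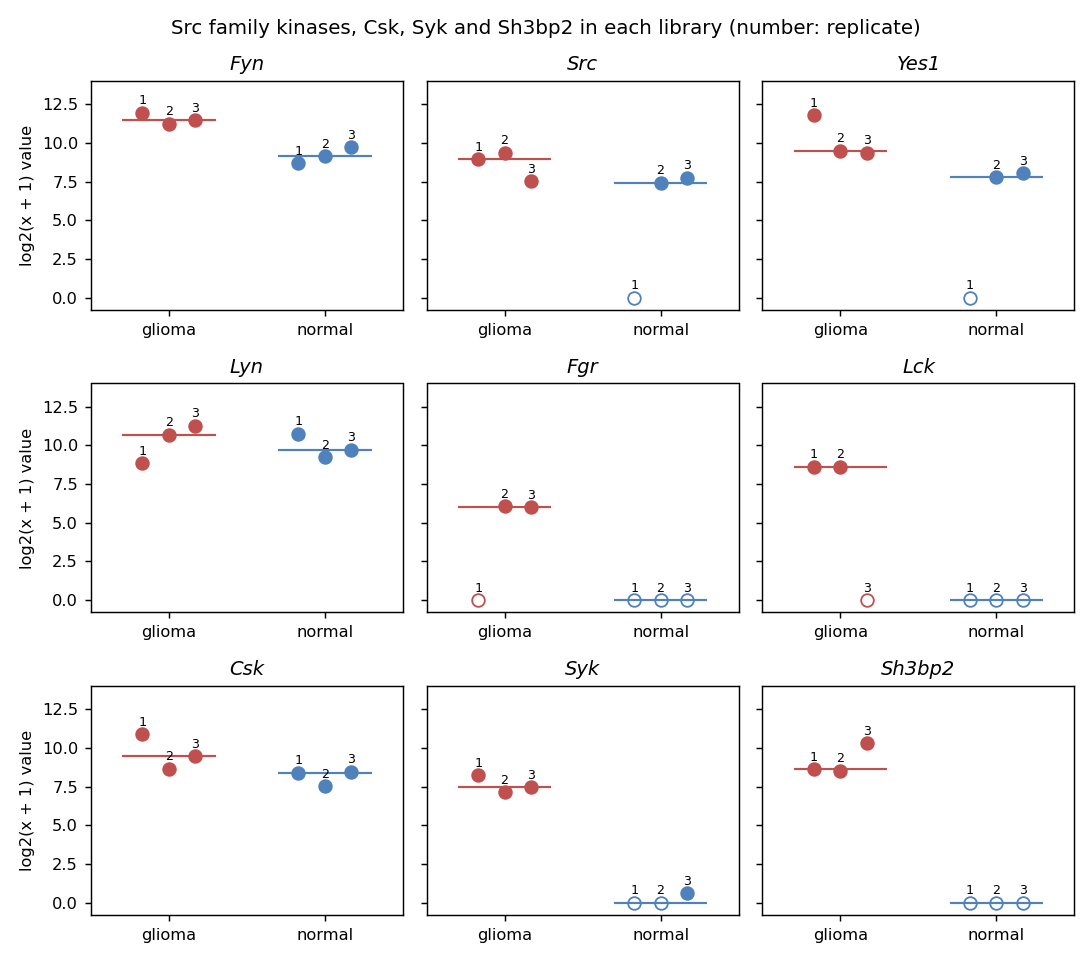
Log2(x + 1) value of each of the 9 genes in each library, with glioma in red and normal in blue; numbers are replicates, open circles are values listed at 0, and lines are group medians. The glioma points of Fyn, Yes1, Csk, Syk and Sh3bp2 all lie above the normal points, and those of Lyn lie on either side of them.

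Fyn, the broad family member that phosphorylates focal adhesion and junction proteins, was the most abundant of the 9 genes in each glioma library. Its log2 value was 11.95, 11.24 and 11.47 in glioma replicates 1, 2 and 3, against 8.70, 9.15 and 9.73 in normal replicates 1, 2 and 3. The groups did not overlap, and the lowest glioma library stood above the highest normal library. The mean log2 value was 11.55 ± 0.36 in glioma and 9.19 ± 0.52 in normal (SD, n = 3 each), a difference of 2.36 (SE 0.53), or 5.12-fold. The groups kept this order by rank within a library, which is no second check, because quantile normalization ties value to rank. Fyn exceeded 94.3%, 88.2% and 89.0% of the genes above 0 in glioma replicates 1, 2 and 3, and 30.7%, 63.4% and 74.7% of those in normal replicates 1, 2 and 3. The difference was 1.91 between the 2 glioma and 2 normal libraries left when replicate 1 of each group was set aside. Fyn lies at chromosome 10, 39369743 to 39565381 (GRCm38). Within the last 1000 bases of its annotated span lies an antisense gene, Gm16365, and whether reads were counted by strand is not given in the sources used here.

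Yes1, a close relative of Src (chromosome 5, 32611171 to 32687066), also stood higher in glioma, with 1 library far above the rest. The log2 value of Yes1 was 11.78, 9.48 and 9.36 in glioma replicates 1, 2 and 3, and it was listed at 0 in normal replicate 1 beside 7.80 and 8.03 in normal replicates 2 and 3. The groups did not overlap, and glioma replicate 1 alone exceeded the next glioma library by more than the other libraries above 0 spanned in all. Against normal replicates 2 and 3 only, the mean log2 value was 10.21 ± 1.37 (SD, n = 3) in glioma and 7.91 (n = 2) in normal, a difference of 2.29 (SE 0.85). Without glioma replicate 1 as well, that difference was 1.50, or 2.84-fold. Yes1, like Fyn and Csk, was highest in glioma replicate 1, the library in which neuron, fibroblast and granulocyte markers were highest, and the part of those cells in its value was not tested.

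Src, the founding member (chromosome 2, 157423906 to 157471838), overlapped between the groups. Its log2 value was 8.96, 9.35 and 7.52 in glioma replicates 1, 2 and 3, against 0, 7.41 and 7.75 in normal replicates 1, 2 and 3. Glioma replicate 3 lay below normal replicate 3, so the order rests on the other glioma libraries. The mean difference in log2 value was 1.03 (SE 0.86) against normal replicates 2 and 3, and without glioma replicate 3 or normal replicate 3 the groups no longer overlapped.

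Promoters of Fyn, Yes1, Csk, Syk and Sh3bp2 are shown because these are the 5 genes whose glioma libraries lay above all normal libraries. Each is 1 RefSeq window (GRCm38.p6) of 300 bases, from 250 bases before to 50 after an annotated start, the more upstream where 2 windows are given. Capitals mark matches, on either strand, to the GC box (GGGCGG) and to ETS factor motifs (CCGGAAG or CAGGAAG).
Fyn, chr10:39369549-39369848, plus strand: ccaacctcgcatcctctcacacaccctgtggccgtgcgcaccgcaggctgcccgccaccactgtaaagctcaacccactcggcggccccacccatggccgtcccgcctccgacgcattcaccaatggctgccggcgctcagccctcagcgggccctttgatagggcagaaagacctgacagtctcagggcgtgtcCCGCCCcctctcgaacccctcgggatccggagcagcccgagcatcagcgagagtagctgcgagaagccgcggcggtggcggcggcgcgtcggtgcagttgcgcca
Yes1, chr5:32610921-32611220, plus strand: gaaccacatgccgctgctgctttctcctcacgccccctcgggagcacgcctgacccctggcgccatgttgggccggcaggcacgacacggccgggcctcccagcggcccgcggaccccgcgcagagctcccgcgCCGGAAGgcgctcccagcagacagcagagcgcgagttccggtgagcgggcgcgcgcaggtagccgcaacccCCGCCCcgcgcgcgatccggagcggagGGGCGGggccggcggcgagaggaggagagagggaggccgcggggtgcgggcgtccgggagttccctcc
Csk, chr9:57653582-57653881, minus strand: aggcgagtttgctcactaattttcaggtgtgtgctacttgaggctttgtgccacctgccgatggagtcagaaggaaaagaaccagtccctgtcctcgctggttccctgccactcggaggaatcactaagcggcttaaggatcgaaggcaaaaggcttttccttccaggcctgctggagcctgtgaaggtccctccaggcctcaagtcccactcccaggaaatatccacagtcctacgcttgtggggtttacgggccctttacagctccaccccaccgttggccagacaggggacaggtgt
Syk, chr13:52583187-52583486, plus strand: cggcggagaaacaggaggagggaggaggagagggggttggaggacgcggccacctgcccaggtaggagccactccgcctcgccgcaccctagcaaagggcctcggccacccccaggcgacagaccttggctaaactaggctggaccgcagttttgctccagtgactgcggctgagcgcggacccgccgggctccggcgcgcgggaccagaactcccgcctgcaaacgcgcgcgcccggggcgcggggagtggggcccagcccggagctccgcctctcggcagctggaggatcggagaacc
Sh3bp2, chr5:34543115-34543414, plus strand: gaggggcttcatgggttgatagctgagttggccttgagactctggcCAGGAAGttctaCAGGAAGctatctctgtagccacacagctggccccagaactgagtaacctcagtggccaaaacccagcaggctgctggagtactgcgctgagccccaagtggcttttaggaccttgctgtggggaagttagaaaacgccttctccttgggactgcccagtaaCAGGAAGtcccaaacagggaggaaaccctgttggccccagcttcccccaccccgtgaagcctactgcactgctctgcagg
The windows of Fyn, Yes1 and Syk were rich in CpG, with 31, 42 and 31 CpG and 69.0%, 77.0% and 72.0% GC, while the Csk window held 9 CpG and 56.0% GC and the Sh3bp2 window 3 CpG and 57.0% GC. The median of all 32851 windows of this length was 7 CpG and 52.7% GC. The GC box was found 1 time in the Fyn window and 2 times in the Yes1 window, and 35.7% of all windows held at least 1. CCGGAAG was found 1 time in the Yes1 window, and CAGGAAG 3 times in the Sh3bp2 window. The Sh3bp2 window lies well inside the annotated span of the gene, which has an earlier start. The other Sh3bp2 window, further downstream from 34549326, held CAGGAAG 0 times, the GC box 2 times and 11 CpG. The other Csk window, downstream of the one shown, held 24 CpG and the GC box 1 time, and the other Syk window held 2 CpG and none of these motifs. Of all windows 8.86% held CCGGAAG and 13.3% held CAGGAAG. None of the 5 windows shown held the AP-1 motif TGANTCA, the hypoxia element core ACGTG, the cyclic AMP element TGACGTCA or the TATA box TATAAA, present in 7.81%, 19.6%, 1.79% and 13.6% of all windows. A match here describes the letters of a window and not a bound site. Windows were matched for 8 of the 9 genes, 12 windows in all.

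Lyn, a kinase with activating and inhibitory roles in myeloid and B cells (chromosome 4, 3678068 to 3791612), was abundant in both groups and did not separate them. The log2 value of Lyn was 8.85, 10.70 and 11.27 in glioma replicates 1, 2 and 3, against 10.76, 9.25 and 9.73 in normal replicates 1, 2 and 3. Glioma replicate 1 was the lowest and glioma replicate 3 the highest of the 6 libraries. The means were 10.27 ± 1.27 in glioma and 9.91 ± 0.77 in normal (SD, n = 3 each), a difference of 0.36 (SE 0.77). That difference was -0.14 without glioma replicate 3, 0.79 without normal replicate 1, 1.07 without glioma replicate 1, and 1.50, with no overlap, without replicate 1 of both groups, a setting in which 24.6% of all genes lay wholly higher in glioma. It was 0.03, 0.27 and 0.15 without normal replicate 2, normal replicate 3 and glioma replicate 2.

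Fgr, a kinase of neutrophils and macrophages (chromosome 4, 132974095 to 133001893), was listed at 0 in glioma replicate 1 and stood at a log2 value of 6.05 and 6.01 in glioma replicates 2 and 3, against 0 in all 3 normal libraries. Both values were low, above only 16.7% and 8.74% of the genes above 0 in their library. Lck, the kinase that starts T cell receptor signalling (chromosome 4, 129548344 to 129573641), was at 8.63 and 8.62 in glioma replicates 1 and 2, and was listed at 0 in glioma replicate 3 and in all 3 normal libraries. Glioma replicate 2 was thus the only library with both kinases above 0. T and NK cell markers were mostly listed at 0, which is not a measured absence. All 12 T and NK cell markers were listed at 0 in glioma replicate 1, and 10 of them, Cd3e, Cd3g, Cd2, Cd8a, Cd4 and Cd5 included, were listed at 0 in all 6 libraries. The other 2, Cd3d and Il7r, stood in glioma replicate 2 at 3.82, the lowest value above 0 in that library. Cd3d was also at 7.67, 4.88 and 3.25 in normal replicates 1, 2 and 3, where Lck was listed at 0. The list's summed back-transformed value was 0 to 26 in glioma and 8 to 203 in normal libraries. The leukocyte phosphatase gene Ptprc, which encodes CD45 and was singled out after its values were seen, had log2 values of 7.92 and 7.20 in glioma replicates 1 and 2 and was listed at 0 in the other 4 libraries. Granulocyte markers were above 0 for 6 of 7 in glioma replicate 1, with S100a9 at 12.84 and S100a8 at 10.25, and for at most 2 in any other library. The part of granulocytes in the Lck value was not tested.

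The makeup of the family differed between libraries. As QuantSeq gives reads from transcript ends, values of different genes can be set side by side without correction for length. The summed back-transformed value of Fyn, Src, Yes1, Lyn, Fgr and Lck was 8825, 5893 and 6204 in glioma replicates 1, 2 and 3, against 2144, 1564 and 2172 in normal replicates 1, 2 and 3. Each glioma library held more than each normal library, on average 3.56 times as much (6974 ± 1610 in glioma, 1960 ± 343 in normal, SD, n = 3 each). The sum was highest in glioma replicate 1, where neuron and fibroblast markers were highest too, and it was also above all normal libraries in glioma replicates 2 and 3. Fyn gave 44.7%, 40.9% and 45.6% of the sum in glioma replicates 1, 2 and 3, and 19.3%, 36.3% and 39.1% in normal replicates 1, 2 and 3. Lyn gave 5.22%, 28.1% and 39.9% in the glioma libraries and 80.7%, 38.8% and 39.0% in the normal libraries. The Lyn shares of glioma replicate 3 and of normal replicates 2 and 3 were thus close, and the 2 extremes were both replicate 1. On the log2 scale Fyn exceeded Lyn by 3.10, 0.54 and 0.19 in glioma replicates 1, 2 and 3. In normal replicates 1, 2 and 3 the difference, Fyn minus Lyn, was -2.06, -0.10 and 0.00.

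**Figure D2:**
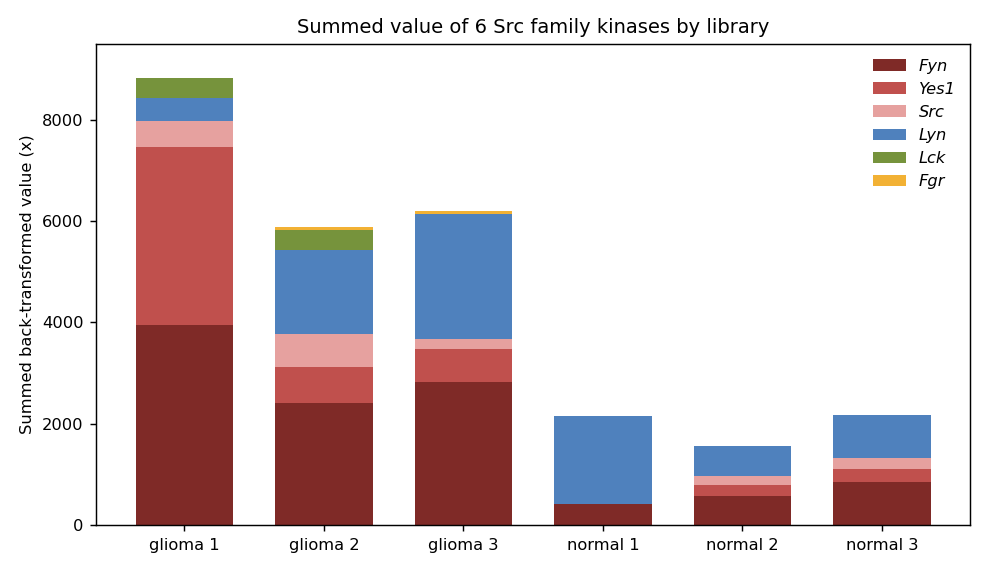
Summed back-transformed value (x, linear axis) of 6 Src family kinases in each library, split by gene; each bar is 1 library. The glioma bars reach 5893 to 8825 and the normal bars 1564 to 2172, and Yes1 is large in glioma replicate 1 only.

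Csk, the kinase that phosphorylates the inhibitory tail tyrosine of the whole family (chromosome 9, 57626646 to 57653631), stood higher in glioma by a narrow gap. Its log2 value was 10.86, 8.64 and 9.45 in glioma replicates 1, 2 and 3, against 8.38, 7.51 and 8.45 in normal replicates 1, 2 and 3. Glioma replicate 2 lay just above normal replicate 3. The means were 9.65 ± 1.13 in glioma and 8.11 ± 0.52 in normal (SD, n = 3 each), a difference of 1.54 (SE 0.85), or 2.90-fold. Without glioma replicate 1, where neuron and fibroblast markers were highest, the difference was 0.93, and the part of those cells in the Csk value was not tested. Set against the summed value of the 6 kinases, Csk amounted to 21.1%, 6.75% and 11.2% in glioma replicates 1, 2 and 3, and to 15.5%, 11.6% and 16.0% in normal replicates 1, 2 and 3. That ratio overlapped between the groups.

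Regulators of the family other than Csk, which is described here with no test, were listed too, and none passed the adjusted threshold. Of 15 genes listed, 10 were tested with limma, 0 passed the adjusted threshold and 0 had an unadjusted p under 0.05. The median difference in log2 value over these 10 was -0.22, beside 0.05 over all 11862 genes. It had the other sign, 0.37, over the 4 regulators above 0 in all 6 libraries, beside -0.18 over all 5880 such genes. The phosphatase genes Ptpra, which encodes an activator of Src family kinases, Ptpn1 and Ptpn11 had the highest mean log2 values when values listed at 0 were averaged in. Ptpn11, which encodes the phosphatase Shp2, was the only regulator whose groups did not overlap. It had log2 values of 11.34, 9.86 and 10.58 in glioma replicates 1, 2 and 3, against 11.48, 11.67 and 11.68 in normal replicates 1, 2 and 3 (difference -1.02, SE 0.51, limma adjusted p = 0.875). Ptpra was at 11.19 ± 0.10 in glioma and 10.92 ± 0.77 in normal, and Ptpn1 at 9.19 ± 0.78 and 8.72 ± 0.77 (SD, n = 3 each). Ptpn12 was at 8.61, 11.04 and 10.30 in glioma replicates 1, 2 and 3, against 0, 10.03 and 9.86 in normal replicates 1, 2 and 3, and exceeded Ptpn1 in each library but normal replicate 1. Lime1, an adaptor that recruits Csk, was at 6.93, 6.13 and 6.96 in glioma and 0, 6.70 and 6.31 in normal libraries.

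Syk (chromosome 13, 52582610 to 52648792) was seen in each glioma library and was at or near 0 in each normal library. Its log2 value was 8.22, 7.11 and 7.46 in glioma replicates 1, 2 and 3, against 0, 0 and 0.58 in normal replicates 1, 2 and 3. In normal replicate 1, whose lowest value above 0 was 7.43, a gene at the Syk level of glioma replicate 2 would not appear. The groups also overlapped once every value was raised to that shared floor. Sh3bp2 (chromosome 5, 34525784 to 34563639), whose protein joins Syk to its effectors, was at 8.60, 8.52 and 10.30 in glioma replicates 1, 2 and 3 and was listed at 0 in all 3 normal libraries. All 3 glioma values of Sh3bp2 exceeded the shared floor of 7.43. Of the 11862 genes, 57 were listed at 0 in all 3 normal libraries. No fold is given against values listed at 0.

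Receptors and ITAM adaptors that lie upstream of Syk showed another pattern. Of 17 listed, 10, 2 and 10 were above 0 in glioma replicates 1, 2 and 3, against 2, 2 and 1 in normal replicates 1, 2 and 3. Their summed back-transformed value was 414, 138 and 13630 in the glioma libraries and 1482, 16 and 18 in the normal libraries. The bulk of it lay in glioma replicate 3, while Syk was highest in glioma replicate 1. Just 2 of the 17, Fcgr4 and Clec7a, passed the filter, and with limma 0 passed the adjusted threshold. Fcgr4, an activating Fc receptor gene, was at 1.42, 6.26 and 7.30 in glioma replicates 1, 2 and 3 and at 0 in the normal libraries (limma unadjusted p = 0.0378, adjusted p = 0.875). It passed the filter through its glioma libraries only, so the filter set its lack of overlap, and that p lends it no support. Clec7a, which encodes the beta-glucan receptor Dectin-1, was at 6.79, 0 and 12.71 in glioma and 9.63, 0 and 4.21 in normal libraries. The ITAM adaptor genes Tyrobp and Fcer1g, singled out after their values were seen, stood at 4.01 and 4.81 in glioma replicate 1, at 9.89 and 10.68 in glioma replicate 3, and at 0 in glioma replicate 2 and the normal libraries.

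Microglia and macrophage markers were strongest in 1 glioma library. Of 18 markers, 14, 4 and 15 were above 0 in glioma replicates 1, 2 and 3, against 6, 7 and 10 in normal replicates 1, 2 and 3. Their summed back-transformed value was 978, 909 and 31571 in glioma replicates 1, 2 and 3, against 4056, 345 and 303 in normal replicates 1, 2 and 3. Normal replicate 1 thus exceeded glioma replicates 1 and 2 in this sum. Cx3cr1 and C1qa were among the 3 with the highest mean. In glioma replicate 2, where Syk was at 7.11, Sh3bp2 at 8.52 and Fgr at 6.05, 14 of the 18 markers were listed at 0, Cx3cr1, Csf1r, Aif1, Itgam, C1qb, Lyz2 and Spi1 among them. The 4 markers above 0 in that library included C1qa, Cd14 and Ctss. Sh3bp2 and Lyn were at their highest in glioma replicate 3, where 13 markers were highest too. Among the normal libraries Lyn was highest in replicate 1, at 10.76, where the summed marker value was highest too. The part of myeloid cells in the values of Syk, Sh3bp2, Fgr and Lyn was not tested.

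**Figure D3:**
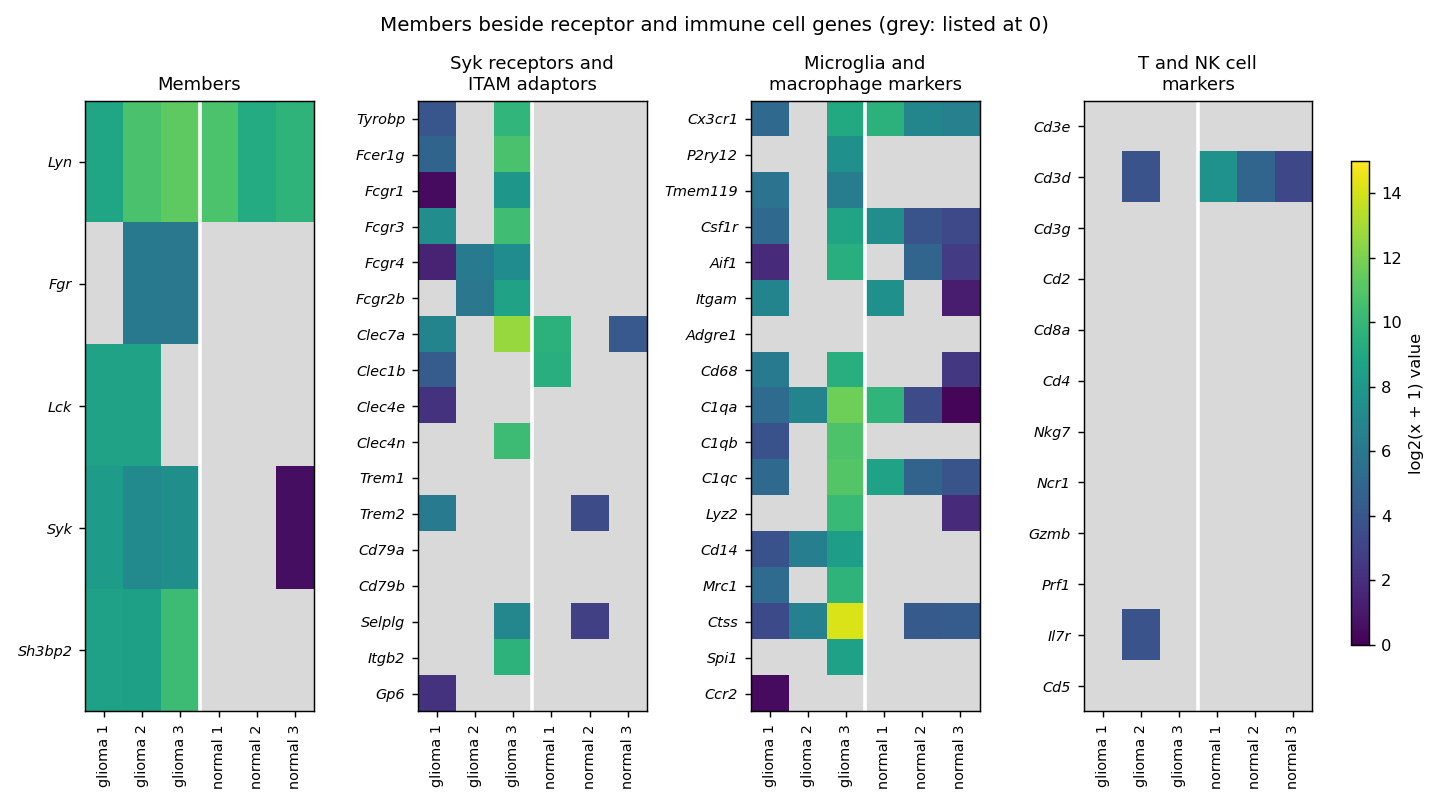
Log2(x + 1) values (color) of Lyn, Fgr, Lck, Syk and Sh3bp2, of the Syk receptor and ITAM adaptor list, and of most myeloid and all T or NK cell markers in each library; grey marks a value listed at 0. Syk and Sh3bp2 are above 0 in all 3 glioma libraries. In glioma replicate 2, 14 myeloid markers are listed at 0, which is not a measured absence.

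Downstream of Syk, 14 of 20 listed effectors and Sh3bp2 partners were tested with limma, of which 0 passed the adjusted threshold and 0 had an unadjusted p under 0.05. Their median difference in log2 value was 0.95 over the 14, with values listed at 0 averaged in, beside 0.05 over all 11862 genes. It was 0.58 over the 5 above 0 in all 6 libraries, beside -0.18 over all 5880 such genes. Rnf146, the ubiquitin ligase that with tankyrases marks Sh3bp2 for breakdown, was at 12.38 ± 0.41 in glioma and 11.48 ± 1.43 in normal (SD, n = 3 each), and Tnks2, a tankyrase gene, at 11.07 ± 0.33 and 11.41 ± 0.31. Nfatc1, a transcription factor gene, was at 11.85, 11.70 and 5.88 in glioma replicates 1, 2 and 3, against 10.91, 10.72 and 10.57 in normal replicates 1, 2 and 3. These partners overlapped between the groups. Inpp5d, a lipid phosphatase gene of blood cells, was at 8.93, 10.03 and 11.36 in glioma and 0, 9.98 and 10.17 in normal libraries. Sla, an adaptor that dampens antigen receptor signalling, was at 7.99, 0 and 10.43 in glioma and 0, 3.42 and 0 in normal libraries, and Hcls1, a blood cell relative of cortactin, at 9.15, 8.41 and 8.42 against 10.50, 0 and 0. Plcg1, which encodes phospholipase C gamma 1 and was the only gene of the list without overlap, was at 0, 5.97 and 6.23 in glioma and 8.52, 6.49 and 6.40 in normal libraries. The gap between glioma replicate 3 and normal replicate 3 was narrow, and each value but that of normal replicate 1 lay under the shared floor of 7.43.

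Related kinases outside the 9 genes were tested for 7 of 15 listed, with 0 past the limma adjusted threshold and 0 at an unadjusted p under 0.05. Zap70, the second member of the Syk family and best known from T cells, was at 8.68, 8.57 and 7.62 in glioma replicates 1, 2 and 3, against 0, 0 and 7.48 in normal replicates 1, 2 and 3. Its groups were separated by the narrow gap between glioma replicate 3 and normal replicate 3. Bmx, a Tec family kinase gene of arterial endothelium, lay the other way, at 7.08 ± 0.43 in glioma and 8.83 ± 0.66 in normal (SD, n = 3 each), a difference of -1.75 (SE 1.02, limma adjusted p = 0.875) with no overlap. Abl1 was at 11.53, 8.89 and 9.76 in glioma and 0, 8.30 and 9.96 in normal libraries. Abl2 was at 10.45 ± 1.24 in glioma and 9.64 ± 1.15 in normal, and Ptk2, which encodes focal adhesion kinase, at 10.06 ± 0.37 and 9.58 ± 0.84 (SD, n = 3 each). Blk, the family member of B cells, singled out after its values were seen, was listed at 0 in all 6.

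Substrates and adaptors of endothelium were abundant and mostly overlapped. Of 24 listed, 22 were tested with limma, with 0 past the adjusted threshold and 0 at an unadjusted p under 0.05. Their median difference in log2 value was 0.32, beside 0.05 over all 11862 genes. Pxn, which encodes the focal adhesion scaffold paxillin, was the only one without overlap. It stood at a log2 value of 10.66, 11.45 and 11.46 in glioma replicates 1, 2 and 3, against 9.33, 10.61 and 10.54 in normal replicates 1, 2 and 3 (difference 1.03, SE 0.56, limma adjusted p = 0.875). Bcar1, which encodes the docking protein p130Cas, was at 8.88, 10.51 and 9.77 in glioma and 0, 8.07 and 8.90 in normal libraries. Glioma replicate 1 lay just below normal replicate 3 for this gene. Gab1, an adaptor of receptor kinases, was at 9.69 ± 1.79 in glioma and 11.12 ± 0.47 in normal (SD, n = 3 each). The most abundant members overlapped widely, with the junction genes Pecam1 at 15.42 ± 0.55 in glioma and 15.89 ± 0.55 in normal, Ctnnb1 at 14.13 ± 1.28 and 13.74 ± 2.50, and Ctnnd1 at 14.05 ± 0.25 and 13.80 ± 1.26 (SD, n = 3 each). Over the 5 lists, 3 of 55 tested genes lay wholly above and 3 wholly below in glioma, against 6.91% and 6.37% of all genes. For Fcgr4, among the genes above, the filter had set this outcome.

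**Figure D4:**
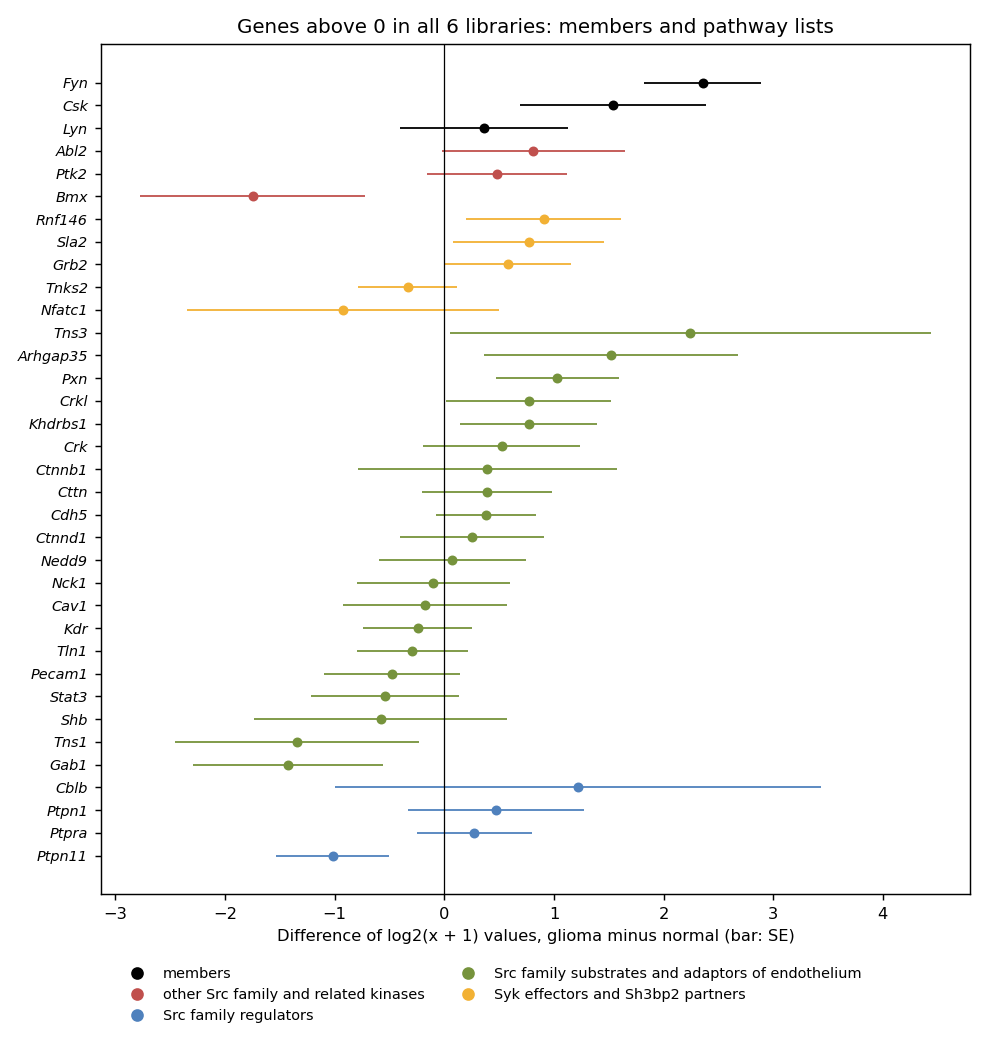
Difference in log2(x + 1) value, glioma minus normal, with its SE from limma, for Fyn, Csk and Lyn and for the genes of the pathway lists that were above 0 in all 6 libraries. Fyn lies at 2.36 with an SE of 0.53 and Lyn at 0.36 with an SE of 0.77, and no gene shown passed the adjusted threshold.

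Genes with a like pattern were sought for Fyn, Lyn and Csk among the 5879 other genes above 0 in all 6 libraries. The highest Pearson correlations with Fyn over the 6 libraries were those of Eno1b (r = 0.99), an enolase gene, and Zyx (r = 0.99), which encodes the focal adhesion protein zyxin. Zyx was at 10.91, 10.39 and 11.08 in glioma replicates 1, 2 and 3, against 7.65, 8.11 and 8.79 in normal replicates 1, 2 and 3, so its groups did not overlap either. Fbxo30 and Rbpms were most like Lyn (r = 0.99 each), and Ranbp2 (r = 0.97) was among the 2 most like Csk. A correlation over 0.95 was reached by 24 genes for Fyn, 24 for Lyn and 10 for Csk. Between the members, r was 0.81 for Csk with Fyn, 0.00 for Lyn with Fyn and -0.17 for Csk with Lyn. These are descriptions over 6 libraries that share their normalization and fall into 2 groups.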

How the data were processed

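RNA of sorted endothelial cells was read in 6 QuantSeq libraries, grouped by sample title as 3 glioma and 3 normal. The deposited files hold 1 log2 value per gene symbol, whose form, log2(x + 1) after quantile normalization with 0 for genes without reads, was read from the values. Per the submitters' processing notes, Bowtie2, edgeR and mm10 were used, with no role or version stated. How reads were counted per gene is not given in the labels. Group differences in these log2 values came from limma 3.58.1 (R 4.3.3), with 4 residual degrees of freedom and a variance prior that follows the mean, after a filter at x of 1 in 3 libraries. P-values were adjusted by Benjamini-Hochberg with a threshold of 0.05, and the fit was tested on simulated data. The 9 genes, the 5 pathway lists (91 genes) and the 11 marker lists (94 genes, 93 matched) were chosen with earlier results of these data known. Each pathway list gave its 3 tested genes with the highest mean and the 3 with the smallest p for naming, and any gene without overlap between groups was added. Genes most like Fyn, Lyn and Csk were the 2 with the highest Pearson r, and markers named first were the 3 highest. Some genes that these rules name are not reported here. Coordinates are those of RefSeq on GRCm38.p6, the build called mm10, and antisense overlap is from GENCODE. Alternatives left out libraries, fitted the replicate number, or changed the offset, floor, filter, scaling or variance prior.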

Additional observations from a re-analysis of the deposited data

How the results depend on the processing

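The count of 0 genes past the limma adjusted threshold held in 13 of 14 alternatives and was 15 without a mean trend in the variance prior. It was 0 over the 5 pathway lists in all 14. Leaving out each library in turn, the genes of the Src and Syk group wholly higher in glioma numbered 5 to 7 and those wholly lower 0. The shares of all tested genes in the same settings were 7.76% to 15.0% and 7.22% to 20.7% (6.91% and 6.37% with every library). The bases differ, because the counts of the group include Fgr and Lck, which did not pass the filter. The pathway genes wholly higher numbered 3 to 12 and those wholly lower 3 to 5, with 12 and 5 without normal replicate 1 (14.7% and 20.7% of all genes), 11 and 4 without glioma replicate 1 (15.0% and 12.1%), and 21 and 8 without replicate 1 of both groups (24.6% and 30.9%), where a separation of 2 from 2 libraries is more easily met. Genes above 0 in all 6 libraries include only 3 of the 9 genes, of which 2 (Fyn and Csk) were wholly higher and 0 wholly lower. In that setting 1 pathway gene was wholly higher and 2 wholly lower, beside 5.05% and 8.62% of all such genes. With libraries centred on their medians 5 pathway genes were wholly higher and 2 wholly lower, beside 7.6% and 5.59% of all genes, and the cause was not tested. The Fyn difference was 1.91 to 2.63, Csk 0.93 to 2.04 and Lyn -0.14 to 1.50 over 10 alternatives. With the replicate number of the titles as a block the limma count stayed at 0. Deviations of same-numbered libraries correlated at 0.19, 0.15 and 0.06 across 5880 genes for replicates 1, 2 and 3. Glioma replicate 1 correlated at -0.18 with each of normal replicates 2 and 3, and normal replicate 1 at -0.19 and -0.08 with glioma replicates 2 and 3. Glioma replicate 2 correlated best with normal replicate 3 (0.19), so the numbers were not taken to pair the libraries. Depth is unknown, and the floor of normal replicate 1 (7.43) limits what can be said of genes at or under that level.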
